A study of Mus musculus with 12 samples.

Results

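The 10 genes described here are those of the lysyl oxidases, Lox, Loxl1, Loxl2, Loxl3 and Loxl4, and of 5 small leucine-rich proteoglycans, fibromodulin (Fmod), biglycan (Bgn), decorin (Dcn), lumican (Lum) and Prelp. They were 10 of the 17995 genes in the expression table, and each was found once by its symbol. The genes were chosen by symbol, in view of the levels of Lox and Fmod in shM5 and shNC cells of the C18-4 line, so the values of all 10 genes in that comparison are given as a description with no test. The comparison in TM4 cells did not enter that choice. The comparison between the lines shares the C18-4 libraries, and a gene chosen for its change there has to be expressed there, so Lox and Fmod are given between the lines as a description with no test.

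Lysyl oxidases are secreted, copper-dependent enzymes that oxidise lysine side chains of collagen and elastin, after which the fibres become cross-linked. Small leucine-rich proteoglycans bind the surface of collagen fibrils and help to set their diameter and spacing. Decorin and biglycan carry chondroitin or dermatan sulfate chains, fibromodulin and lumican carry keratan sulfate chains, and fibromodulin also binds collagen near the sites that lysyl oxidase modifies. In the testis these proteins belong to the interstitium and to the wall of the seminiferous tubule, where peritubular cells deposit collagen, decorin and biglycan.

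RNA-seq was done on 12 libraries of 2 mouse cell lines. C18-4 is a line of spermatogonial stem cells and TM4 is a line of Sertoli cells, and the labels give the strain of both as IRC. Each line had 3 libraries of cells given shM5, a mixture of 3 lentiviral short hairpin RNAs against the muscarinic receptor gene Chrm5 (M5), and 3 libraries of cells given shNC, a control hairpin in the same vector. All 12 libraries therefore carry a lentiviral hairpin, no untreated cells were sequenced, each line stands for its cell type by 1 culture, and nothing states that the 3 libraries of a group came from separate cultures, so p-values measure the spread between these libraries, which may be technical.

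Sequence before the transcript start is shown for the small leucine-rich proteoglycans that were lower with shM5 in C18-4 cells. Windows of the RefSeq promoter table of build GRCm38.p6 were searched for 4 of the 10 genes, Fmod, Bgn, Loxl4 and Prelp. Lox was left out of this search. The 250 bases before the start are printed for Fmod (chr1:134037004-134037253, plus strand) and Bgn (chrX:73483351-73483600, plus strand), 5′ to 3′, with matches to any of 6 searched motifs in capitals.
Fmod: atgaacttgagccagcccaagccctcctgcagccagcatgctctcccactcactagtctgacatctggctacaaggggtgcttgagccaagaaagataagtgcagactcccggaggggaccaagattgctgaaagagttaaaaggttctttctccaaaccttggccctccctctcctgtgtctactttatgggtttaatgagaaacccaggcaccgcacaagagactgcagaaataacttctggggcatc
Bgn: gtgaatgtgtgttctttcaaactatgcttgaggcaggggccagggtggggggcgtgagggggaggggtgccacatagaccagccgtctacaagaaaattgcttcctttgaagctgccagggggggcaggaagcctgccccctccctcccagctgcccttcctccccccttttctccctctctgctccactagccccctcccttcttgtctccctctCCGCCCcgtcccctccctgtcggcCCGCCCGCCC

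The motifs were searched on both strands of windows of 300 bases, from 250 before to 50 after the start. The letters TATAAA were used for the TATA box, GGGCGG for the GC box, CCAAT for the CCAAT box, TGANTCA for the AP-1 site, CACGTG for the E-box, and the CArG box was searched by its consensus. Bgn had 3 GC boxes on the minus strand, at -34 to -29, -10 to -5 and -6 to -1 from the start, and the last pair overlapped. Loxl4 had 3 GC boxes on the plus strand, at -89 to -84, -56 to -51 and -15 to -10. Fmod had no match before the start and 1 CCAAT box at 35 to 39 after it, and Prelp had 1 CCAAT box at -15 to -11. Over 32851 promoter windows the GC box was found in 35.7%, the CCAAT box in 37.4%, the TATA box in 13.6%, the AP-1 site in 7.81%, the E-box in 7.15% and the CArG box in 1.63%. None of the 4 windows held a TATA box, AP-1 site, E-box or CArG box with these letters.

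The levels were deposited as RPKM, read numbers scaled to gene length and to the size of the library, which allows levels of different genes to be compared. Depths are not given. The value of 1 read, judged from low values, was at 0.979 to 1.01 on a relative scale. Only values near the lowest of their gene entered this estimate. Its narrow range follows from that choice and cannot show whether the depths of the libraries were alike. Chrm5 was at 0 or 0.01 RPKM in all 12 libraries, so the knockdown could not be checked. The label of C18-4 cells was not borne out by its markers: Kit and Stra8 were at 0 and Gfra1, Ret and Zbtb16 at or below 0.34 RPKM in all 6 libraries, whereas Wt1, a Sertoli gene, was at 53.9 to 72.3 RPKM. Of 15 spermatogonial markers in the table, 2 (Id4 and Etv5) were at 1 RPKM or more in every C18-4 library, and of 15 Sertoli markers 5 were in C18-4 and 7 in TM4 cells. In TM4 cells Sox9 was at 1.11 to 1.74 RPKM, Amh at or below 0.19 RPKM and Wt1 at or below 0.15 RPKM, with Kitl at 18.4 to 49.5 RPKM. Replicate 3 stood apart in both C18-4 groups, at 0.376 to 0.438 (root mean square log2 difference) from the other libraries of its group, which differed from each other by 0.200 and 0.201. In TM4 cells, shNC replicate 3 differed from the other shNC libraries by 0.640 and 0.642 and from the 3 shM5 libraries by 0.202 to 0.257, so TM4 results are given with and without it.

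Levels of several of the 10 genes differed between the lines, and the oxidases did so in both directions. In C18-4 cells 7 of the 10 genes were at 1 RPKM or more in every library, and in TM4 cells 6 were. Lox was abundant in C18-4 cells and close to 0 in TM4 cells, whereas Bgn and Dcn were several times more abundant in TM4 cells, where they exceeded every lysyl oxidase. Fmod reached 1 RPKM in C18-4 shNC cells alone, and Lum and Prelp stayed below 1 RPKM in all 12 libraries.

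**Figure D1:**
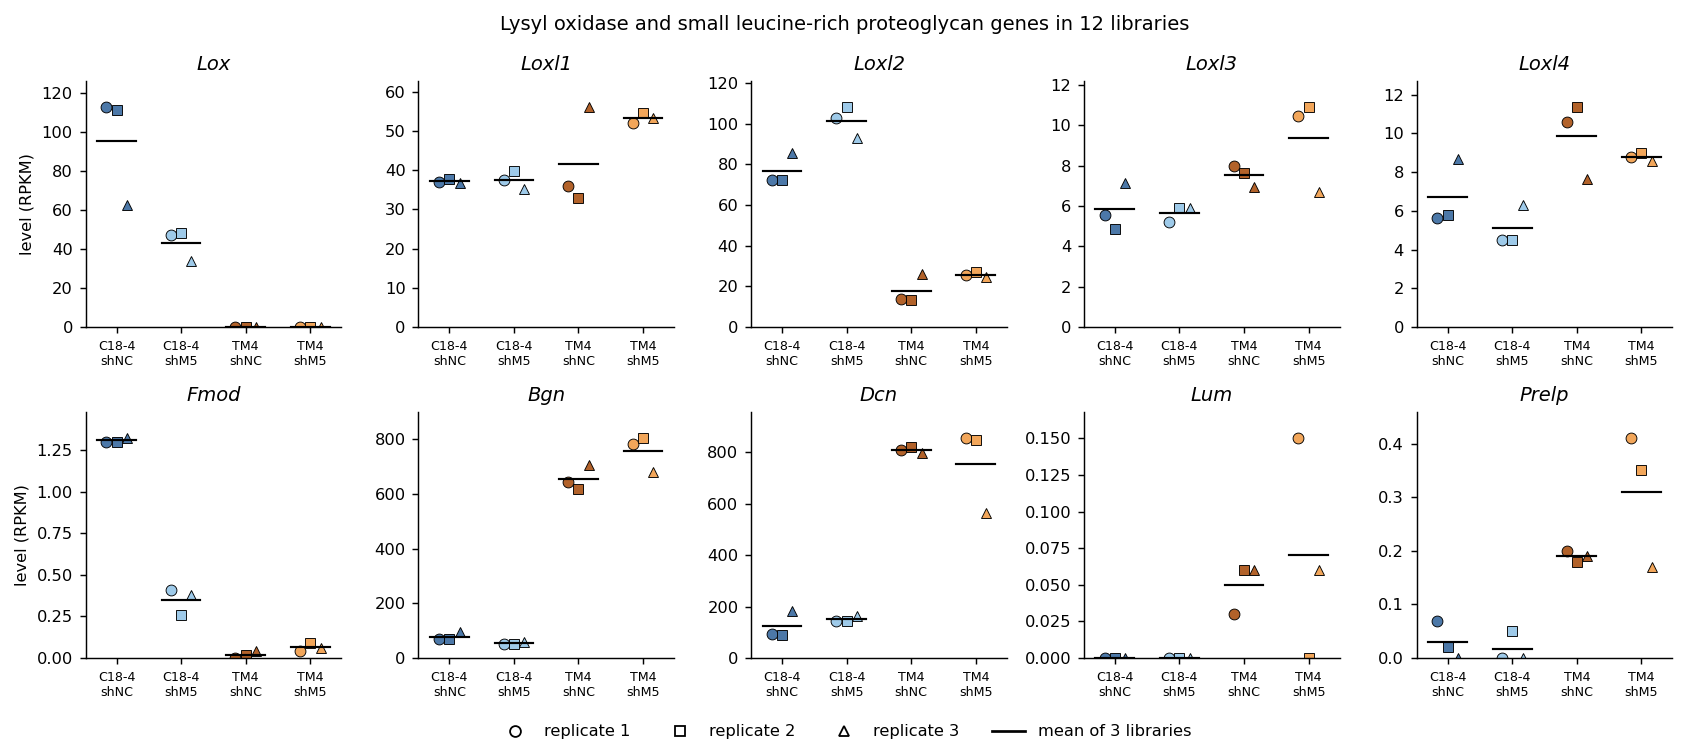
Level of each of the 10 genes in RPKM (vertical axis, linear from 0, with a separate scale for each gene) in the 4 groups, with 1 symbol per library and a bar at the mean of 3. Lox lay at 33.8 to 113 RPKM in C18-4 libraries and at most 0.07 RPKM in TM4 libraries, and TM4 shNC replicate 3 lay among the shM5 libraries for Loxl2.

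Ordered by level in C18-4 shNC cells, Dcn (123 ± 52.5 RPKM), Lox (95.5 ± 28.5), Bgn (77.5 ± 15.3) and Loxl2 (76.7 ± 7.73) came first (SD, n = 3), and the ranges of neighbours in this order overlapped. Loxl1 followed at 37.1 ± 0.527 RPKM, then Loxl4 at 6.72 ± 1.71 and Loxl3 at 5.85 ± 1.17, whose ranges overlapped, and Fmod at 1.31 ± 0.0115. With shM5 the order was Dcn (151 ± 11.0 RPKM), Loxl2 (101 ± 7.52), Bgn (53.2 ± 3.50), Lox (43.0 ± 8.02) and Loxl1 (37.5 ± 2.2), where only Lox and Loxl1 among these neighbours overlapped. In TM4 shNC cells Dcn (809 ± 11.7 RPKM) and Bgn (655 ± 45.8) did not overlap, and Loxl1 (41.6 ± 12.6) and Loxl2 (17.7 ± 7.27) followed them without overlap. In TM4 shM5 cells Dcn (756 ± 165) and Bgn (756 ± 65.9) overlapped, above Loxl1 (53.4 ± 1.28) and Loxl2 (25.7 ± 1.27). Loxl3 and Loxl4 were lower than these and overlapped with each other in both TM4 groups.

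The difference between the lines was tested over all 12 libraries with limma on log2(RPKM + 0.1), as the mean of both C18-4 groups minus the mean of both TM4 groups, in 11773 genes whose mean reached 0.5 RPKM. With 6 libraries against 6, 73% of these genes passed an adjusted p of 0.05, 43.9% higher and 29.2% lower in C18-4 cells. A call is therefore no feature of the families. The lines did not overlap for 6222 of the 11773 genes, so a lack of overlap is no feature of them either. The median over all genes was 0.14, and each value below can be read against it. With each library scaled by its median the calls were 4243 higher and 4372 lower in C18-4 cells, against 5163 and 3433 without scaling. Of the 10 members 7 passed the filter on low values, Lox by its C18-4 libraries alone. Without Lox, 6 members were tested and 6 called, 1 higher (Loxl2) and 5 lower in C18-4 cells, each in the same direction with and without scaling and with any 1 library left out. Their median was -0.60, beside the 0.14 of all genes. With the shNC libraries alone, 6517 of 11810 genes were called, 34.7% higher and 20.5% lower in C18-4 cells. In that fit 3 of the 6 were called, Loxl2 higher and Bgn and Dcn lower, a count that is no feature of the members. At a stricter threshold, with an adjusted p no higher than 0.001 and a log2 difference of 1 or more in either direction, which 26.3% of genes passed, 3 of the 6 were called, namely Loxl2, Bgn and Dcn.

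Lox, the first described enzyme of its family, was at 113, 111 and 62.6 RPKM in the C18-4 shNC libraries 1, 2 and 3 and at 47.0, 48.2 and 33.8 RPKM in the shM5 libraries. In TM4 cells it was at 0, 0.03 and 0.04 RPKM with shNC and at 0.01, 0.07 and 0.04 RPKM with shM5. Every C18-4 library was above every TM4 library. The log2 difference was 8.92 (SE 0.18), a value that depends on the pseudocount because TM4 cells were near 0, and it was 5.95 with a pseudocount of 1.

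Loxl2, an oxidase of the branch with scavenger receptor domains, was at 72.1, 72.3 and 85.6 RPKM in C18-4 shNC and 103, 108 and 93.2 RPKM in C18-4 shM5 libraries. In TM4 cells it was at 13.7, 13.2 and 26.1 RPKM with shNC and at 25.4, 27.1 and 24.6 RPKM with shM5. The lines did not overlap, with a log2 difference of 2.08 (SE 0.15, adjusted p = 1.08e-07, limma), and TM4 shNC replicate 3 sat among the shM5 libraries. Without that library the difference was 2.24.

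Bgn was at 68.5, 68.8 and 95.1 RPKM in C18-4 shNC and 50.5, 51.9 and 57.1 RPKM in C18-4 shM5 libraries. In TM4 cells it was at 642, 617 and 706 RPKM with shNC and at 783, 803 and 680 RPKM with shM5. All TM4 libraries were above all C18-4 libraries, by 10.8 times between the means of the lines, and the log2 difference was -3.46 (SE 0.09, adjusted p = 7.68e-12, limma). Its neighbour in function Dcn, which also binds collagen and growth factors, was at 94.7, 91.4 and 184 RPKM in C18-4 shNC and 146, 143 and 163 RPKM in C18-4 shM5 libraries. In TM4 cells Dcn was at 809, 820 and 797 RPKM with shNC and at 854, 848 and 565 RPKM with shM5. The lines again did not overlap, with a log2 difference of -2.55 (SE 0.17, adjusted p = 5.41e-08, limma) and means that differed by 5.71 times. The summed level of 9 peritubular myoid and fibroblast markers was 66.1 to 160 RPKM in C18-4 libraries and 276 to 491 RPKM in TM4 libraries, with Myh11 and Thy1 at or below 0.15 RPKM in all of them. Of the TM4 sum, Cd34 made up 105 to 139 RPKM, against 0.21 RPKM or less in C18-4 libraries, whereas Des was higher in C18-4 (4.26 to 6.60 RPKM) than in TM4 libraries (0.38 to 0.53 RPKM). The part of these markers in the differences was not tested. In bulk RNA, fewer cells of a type and less RNA per cell cannot be told apart.

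The other oxidases differed less between the lines. Loxl1, which acts on elastic fibres, was at 37.0, 37.7 and 36.7 RPKM in C18-4 shNC, 37.5, 39.7 and 35.3 RPKM in C18-4 shM5, 35.9, 32.9 and 56.0 RPKM in TM4 shNC and 52.1, 54.7 and 53.3 RPKM in TM4 shM5 libraries. Its C18-4 values were nearly level, and TM4 shNC replicates 1 and 2 fell within or below them. The log2 difference was -0.32 (SE 0.11, 95% interval -0.56 to -0.07, adjusted p = 0.0221, limma). Without TM4 shNC replicate 3 it was smaller, at -0.20 (95% interval -0.30 to -0.10, adjusted p = 0.00168, limma). Within the shNC libraries alone it was -0.12 (adjusted p = 0.623, limma) and within the shM5 libraries alone -0.51 (adjusted p = 0.000136, limma), a difference between treatments that was not itself tested.

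Loxl3 was at 4.87 to 7.15 RPKM in the 6 C18-4 libraries, and in TM4 libraries at 8.01, 7.62 and 6.96 RPKM with shNC and 10.5, 10.9 and 6.72 RPKM with shM5. Loxl4 was at 5.65, 5.81 and 8.69 RPKM in C18-4 shNC, 4.52, 4.52 and 6.28 RPKM in C18-4 shM5, 10.6, 11.3 and 7.67 RPKM in TM4 shNC and 8.80, 8.97 and 8.55 RPKM in TM4 shM5 libraries. Both enzymes were lower in C18-4 cells on average, but replicate 3 libraries made the lines overlap. The log2 differences were -0.53 for Loxl3 (SE 0.13, adjusted p = 0.00364) and -0.67 for Loxl4 (SE 0.14, adjusted p = 0.00106, limma). Within the shNC libraries alone neither was called, at -0.37 for Loxl3 (adjusted p = 0.105, limma) and -0.56 for Loxl4 (adjusted p = 0.075, limma).

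Fmod, Lum and Prelp had means below 0.5 RPKM over the 12 libraries and were left out of that test. Fmod was at 1.30, 1.30 and 1.32 RPKM in C18-4 shNC, 0.41, 0.26 and 0.38 RPKM in C18-4 shM5, 0, 0.02 and 0.04 RPKM in TM4 shNC and 0.04, 0.09 and 0.06 RPKM in TM4 shM5 libraries. Every C18-4 library was above every TM4 library, and without the filter on low values the log2 difference was 2.51 (SE 0.13). Prelp, a proteoglycan of basement membranes and connective tissue, was at 0.07 RPKM or less in C18-4 cells. In TM4 cells it was at 0.20, 0.18 and 0.19 RPKM with shNC and 0.41, 0.35 and 0.17 RPKM with shM5. The lines did not overlap for Prelp, and without the filter its log2 difference was -1.49 (adjusted p = 3.14e-05, limma). As for Lox, the sizes for Fmod and Prelp depend on the pseudocount. The p-value of Prelp rests on values below 0.5 RPKM. Lum was listed at 0 in all 6 C18-4 libraries and at 0 to 0.15 RPKM in TM4 libraries, levels too low to order the groups.

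**Figure D2:**
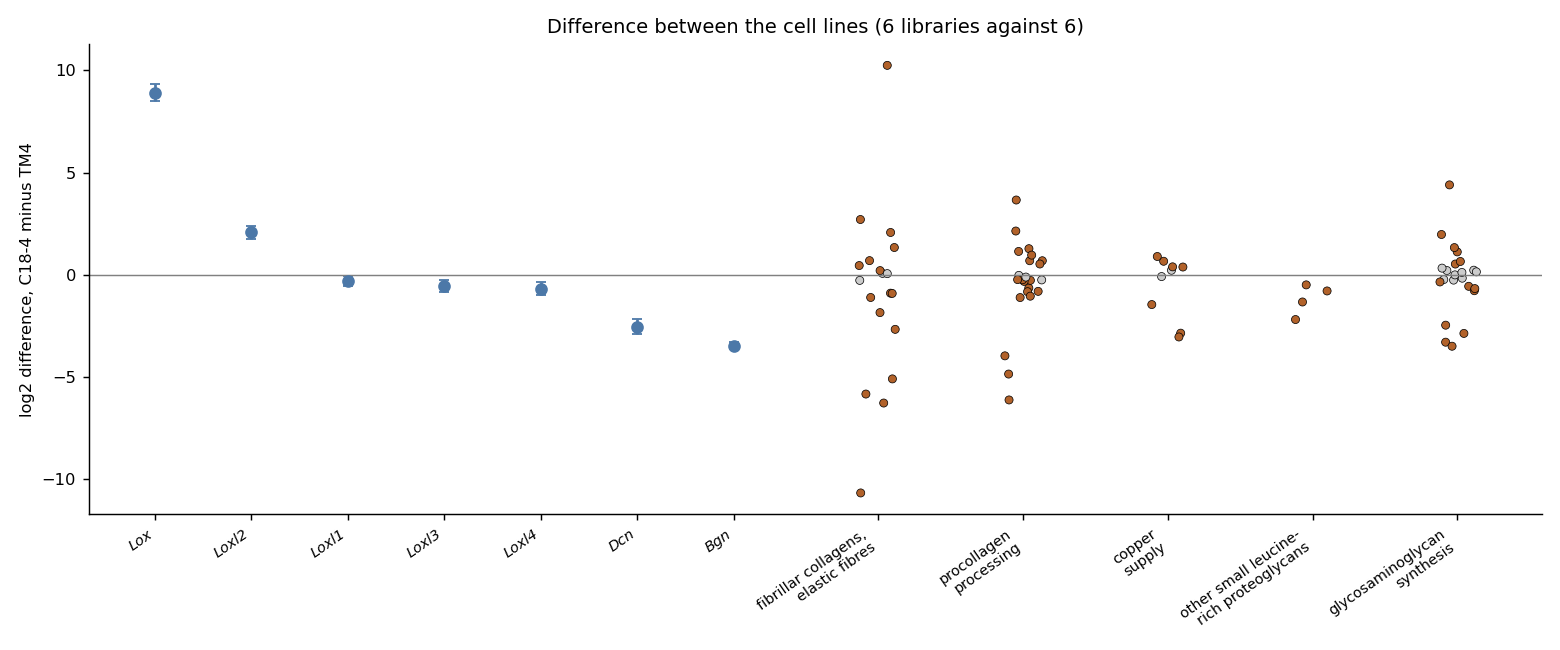
Difference between the lines in log2(RPKM + 0.1), C18-4 minus TM4 (vertical axis), for the 7 members that passed the filter, with 95% confidence intervals (limma, left; Lox as a description) and for the tested genes of 5 related lists (right, 1 point per gene, brown for an adjusted p below 0.05 and grey otherwise). Lox was at 8.92 and Bgn at -3.46, within the range from -10.67 for Col1a2 to 10.25 for Efemp1.

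Genes that work with the members also differed in both directions. Of 25 fibrillar collagen and elastic fibre genes, the substrates of lysyl oxidases and their partners, 19 were tested, 7 were higher and 9 were lower in C18-4 cells, with a median of -0.27. Efemp1, encoding the elastic fibre protein fibulin-3, was at 166 ± 23.7 RPKM in C18-4 and 0.0383 ± 0.0337 RPKM in TM4 cells (SD, n = 6). Fbn1 (fibrillin-1) and Fbln1 (fibulin-1) were higher in C18-4 cells by 2.71 and 2.07 on the log2 scale. Col1a2, a chain of type I collagen, was at 0.157 ± 0.0413 RPKM in C18-4 and 425 ± 114 RPKM in TM4 cells (SD, n = 6), while Col1a1, the other chain, named here after its values were seen, was at 332 ± 42.1 and 212 ± 65.4 RPKM (SD, n = 6). Col11a1 (log2 difference -6.27) and Fn1, encoding fibronectin (-5.83), were also lower in C18-4 cells.

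Of 25 genes of procollagen processing and collagen modification, 23 were tested, 8 were higher and 12 were lower in C18-4 cells, with a median of -0.24. Tll1, a protease of the BMP1 family that cleaves procollagen and the lysyl oxidase proenzyme, was higher by 3.66 on the log2 scale, Pcolce2, an enhancer of such cleavage, by 2.14, and P3h4, of a lysyl hydroxylation complex, by 1.28. The prolyl hydroxylase subunit P4ha3 (-6.12) and the procollagen N-proteinases Adamts3 (-4.85) and Adamts2 (-3.96) were lower. Of 10 copper genes 9 were tested, 4 were higher and 3 lower, with a median of 0.22, among them the copper importer Slc31a1 at 0.90, the copper chaperone Ccs at 0.67 and Slc31a2 at 0.39, against the metalloreductases Steap2 at -1.45, Steap3 at -2.85 and Steap4 at -3.04. All 4 tested genes of the 13 other small leucine-rich proteoglycans were lower in C18-4 cells over all 12 libraries, with a median of -1.06, and Podnl1 (-2.19), Ogn, encoding osteoglycin (-1.33), and Omd, encoding osteomodulin (-0.79), were the largest. With the shNC libraries alone 5 were tested, 1 was higher (Podn, at 3.33, listed near 0 in TM4 cells) and 2 were lower (Podnl1 and Ogn), with a median of -0.33. Of 30 genes of glycosaminoglycan synthesis 23 were tested, 6 were higher and 8 lower, with a median of -0.00. The chondroitin sulfate enzymes Chst15 (4.40) and Chst12 (1.97) and the sulfate transporter Slc26a2 (1.33) were higher, and Csgalnact1 (-3.49), Chst11 (-3.29) and Chst2 (-2.87) were lower. As for Lox, the sizes given for genes near 0 in 1 line, such as Efemp1, Col1a2 and P4ha3, depend on the pseudocount.

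Summed over its 5 genes, the oxidase family was at 222 ± 18.3 RPKM in C18-4 shNC, 193 ± 16.4 in C18-4 shM5, 76.7 ± 17.4 in TM4 shNC and 97.2 ± 4.27 in TM4 shM5 cells (SD, n = 3). The proteoglycan sums were 202 ± 67.7, 204 ± 14.4, 1464 ± 34.5 and 1512 ± 230 RPKM in the same order. The oxidase sum was thus above the TM4 sums in every C18-4 library and the proteoglycan sum below them in every C18-4 library. Lox made up 42.5% ± 9.81 of the oxidase sum in C18-4 shNC cells and 22.2% ± 2.47 with shM5, Loxl2 34.9% ± 6.68 and 52.7% ± 0.671, and Loxl1 was the main oxidase of TM4 cells at 53.7% ± 3.80 and 55.0% ± 1.96 (SD, n = 3). Dcn and Bgn made up nearly the whole proteoglycan sum. In C18-4 cells Dcn took 59.9% ± 4.95 with shNC and 73.8% ± 0.468 with shM5, and Bgn 39.4% ± 4.75 and 26.1% ± 0.489 (SD, n = 3).

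**Figure D3:**
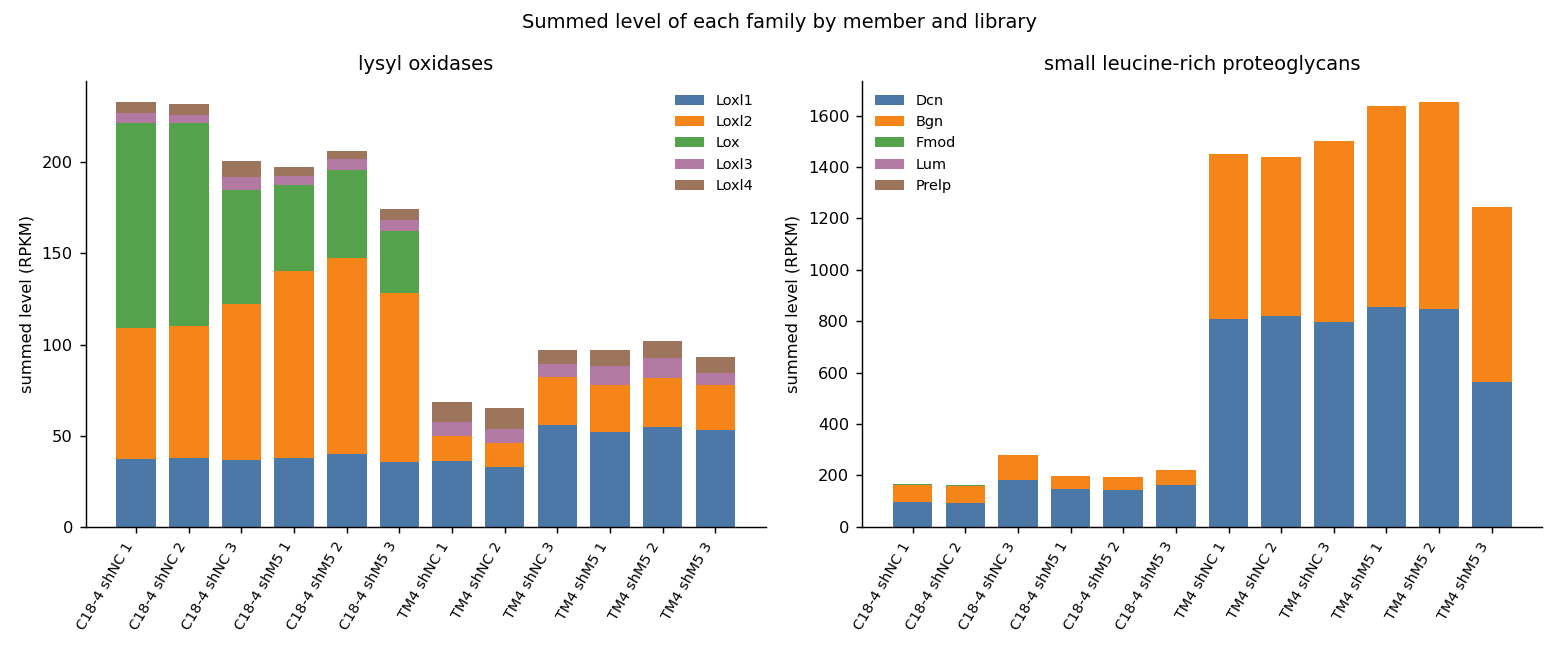
Summed level of each family in RPKM (vertical axis, linear from 0) in each of the 12 libraries, stacked by gene, with lysyl oxidases on the left and small leucine-rich proteoglycans on the right. Lox is the largest part of the oxidase bar in C18-4 shNC replicates 1 and 2, Loxl2 in C18-4 shNC replicate 3 and the 3 C18-4 shM5 libraries, and Loxl1 in the TM4 libraries.

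In C18-4 cells, shM5 was compared with shNC. The paper reports lower M5 protein by staining in both lines, but a loss of Chrm5 RNA could not be seen in these libraries. The members were selected on this comparison, so nothing is read from the counts that follow. Of the 10 members, 8 passed the filter on low values, Fmod by its shNC libraries alone (Lum and Prelp did not). The groups did not overlap for 4 of these, Lox, Fmod and Bgn being lower and Loxl2 higher with shM5, beside 18.9% of the 11611 genes tested. Their median log2 difference was -0.20, beside -0.00 over all genes tested.

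The values by library, given above for each gene, separate Lox, Fmod, Bgn, Loxl4 and Loxl2, for which shM5 differed from shNC in 1 direction in all 3 replicate numbers, from Dcn, Loxl1 and Loxl3, for which it did not. Lox was at 0.417, 0.433 and 0.539 of the shNC library of the same number in shM5 libraries 1, 2 and 3, and its log2 difference was -1.12 (SE 0.25). Its shNC replicate 3, at 62.6 RPKM, lay nearer to the highest shM5 value than to shNC replicates 1 and 2 but above all 3 shM5 libraries. Fmod was at 0.315, 0.200 and 0.288 of the shNC libraries, with a log2 difference of -1.66 (SE 0.22) that was -0.77 with a pseudocount of 1, and its values of 0.26 to 1.32 RPKM rest on few reads. Bgn was at 0.737, 0.754 and 0.601 of the shNC libraries, a log2 difference of -0.53 (SE 0.14). Loxl4 was at 0.800, 0.778 and 0.723 of the same-numbered shNC libraries and at -0.38 (SE 0.21), with groups that overlapped because replicate 3 was high in both.

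Loxl2 went the other way, at 1.43, 1.49 and 1.09 times the shNC library of the same number, a log2 difference of 0.41 (SE 0.10). Lox exceeded Loxl2 in 2 of 3 shNC libraries and in 0 of 3 shM5 libraries. Dcn was at 1.54, 1.56 and 0.887 times the shNC library of the same number and at 0.36 (SE 0.25), since shNC replicate 3 had the highest C18-4 level of the gene. Without replicate 3 of both groups its log2 difference was 0.63 and that of Loxl2 was 0.55. Loxl1 (0.01, SE 0.07) and Loxl3 (-0.03, SE 0.16) had shM5 values within or around those of shNC.

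**Figure D4:**
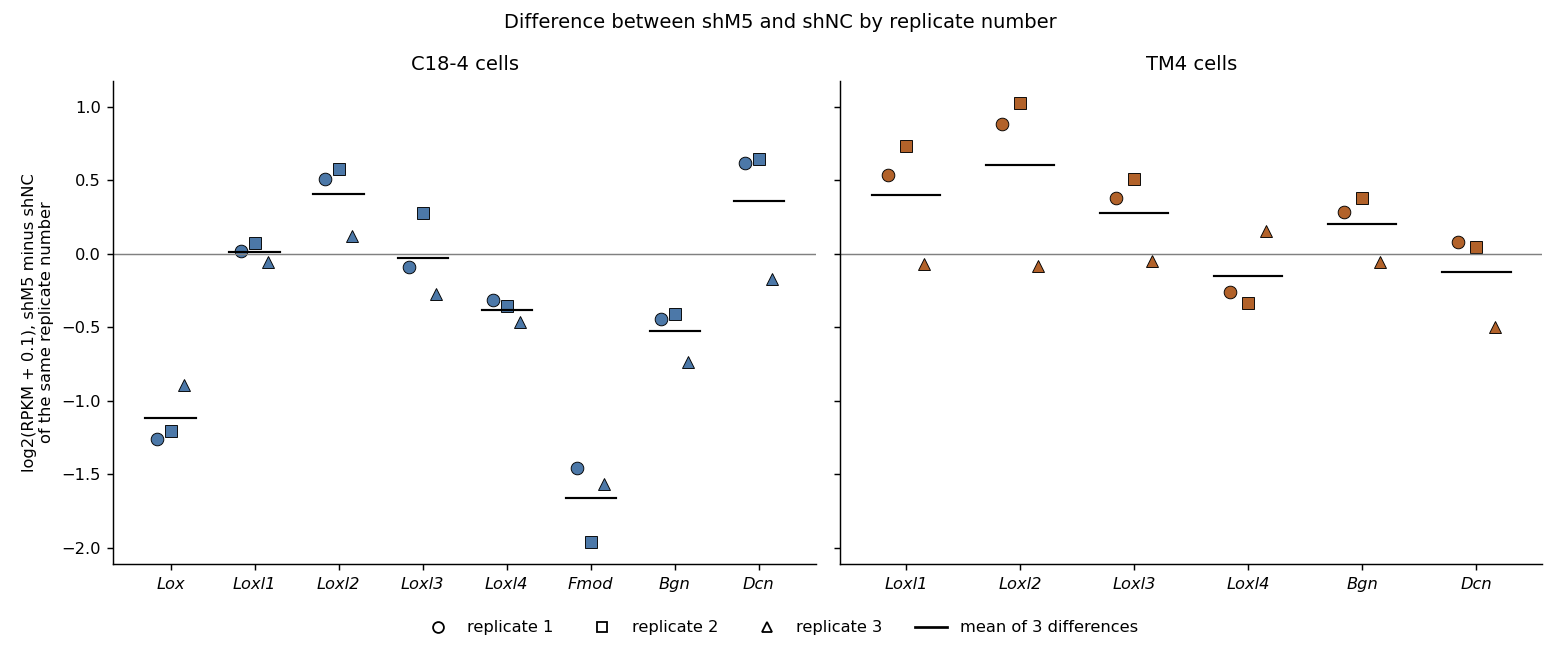
Difference in log2(RPKM + 0.1) between the shM5 and the shNC library of the same replicate number (vertical axis) for the members that passed the filter on low values in C18-4 cells (left) and TM4 cells (right), with 1 symbol per number and a bar at the mean. In C18-4 cells Lox, Fmod, Bgn and Loxl4 lie below 0 and Loxl2 above 0 in all 3 numbers, and in TM4 cells replicate 3 lies on the other side of 0 from replicates 1 and 2 for all 6 genes.

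The markers of peritubular myoid cells and fibroblasts did not move as 1 in C18-4 cells. Their summed level (9 of 10 in the table) was 66.1 to 80.3 RPKM with shNC and 116 to 160 RPKM with shM5, and the higher sum was carried by Acta2 (15.9 to 23.7 and 34.6 to 61.8 RPKM) and Tagln (36.0 to 48.8 and 69.4 to 93.3 RPKM). Pdgfra was at 1.0, 1.13 and 1.85 RPKM with shNC and at 0.81, 0.84 and 1.02 RPKM with shM5, and Pdgfrb at 1.23, 1.39 and 2.16 and at 1.03, 0.65 and 1.34 RPKM. Des and Cnn1 overlapped between the groups, and Myh11, Thy1 and Cd34 were at or below 0.21 RPKM. Of the 9 markers, 6 were at 1 RPKM or more in every shNC library and 4 in every shM5 library. Their part in the values of the members was not tested.

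Of the 72 tested genes of the related lists in C18-4 cells, which were chosen with results of these libraries known, 7 (9.72%) were called, beside 0.586% of all genes tested. Because of that choice, the shares and adjusted p-values given here for list genes are a description and no test of the lists. The 7 calls depend on single libraries. Without replicate 1 or 2 of either group 0 genes of all were called, and 4 of all without the filter on low values. Of 16 tested fibrillar collagen and elastic fibre genes, 2 rose and 2 fell with shM5. Col3a1 rose from 72.2 ± 0.235 to 108 ± 4.97 RPKM and Tnc, encoding tenascin-C, from 12.9 ± 1.75 to 23.9 ± 2.45 RPKM, while Fbln2 fell from 263 ± 20.3 to 172 ± 3.08 RPKM and Col5a3 from 8.03 ± 0.395 to 4.19 ± 0.601 RPKM (SD, n = 3, adjusted p from the limma test 0.0367, 0.041, 0.0367 and 0.041). Of 20 genes of collagen modification 1 rose, Fkbp10, a peptidyl-prolyl isomerase of procollagen (log2 difference 0.43, adjusted p = 0.041, limma), of 8 copper genes 1 fell, Steap3 (-1.18, adjusted p = 0.0475, limma), and of 6 other small leucine-rich proteoglycans 1 fell, Ogn (-0.78, adjusted p = 0.0417, limma). None of the 22 tested genes of glycosaminoglycan synthesis was called by limma. The list medians were 0.11, 0.04, -0.08, -0.63 and 0.04 in the order given. A replicate block was fitted because same-numbered C18-4 libraries deviated together, although replicates 1 and 2 also did so across numbers. With it, 11.9% of all genes and 17 of the 72 (23.6%) were called. In that fit 5 substrate genes rose and 3 fell, 5 of collagen modification rose and 0 fell, 0 and 1 of copper supply, 0 and 2 of the other small leucine-rich proteoglycans, and 0 and 1 of glycosaminoglycan synthesis.

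In TM4 cells the same comparison was made in a Sertoli line, and no member was chosen on it. None of the 6 members tested (Loxl1, Loxl2, Loxl3, Loxl4, Bgn and Dcn) passed an adjusted p of 0.05, as was so for all 11016 genes tested (0% called by limma, with 2866 genes at an unadjusted p below 0.05). The groups overlapped for all 6 members, whereas 26.8% of all genes did not overlap. The median log2 difference of the 6 was 0.24, beside 0.04 over all genes. Loxl2 was at 0.61 (SE 0.26, 95% interval -0.02 to 1.23, adjusted p = 0.192), Loxl1 at 0.40 (SE 0.20, interval -0.08 to 0.87, adjusted p = 0.209) and Bgn at 0.20 (SE 0.09, interval -0.01 to 0.42, adjusted p = 0.192, limma). Loxl3 was at 0.28 (interval -0.19 to 0.75), Loxl4 at -0.15 (interval -0.52 to 0.23) and Dcn at -0.12 (interval -0.51 to 0.27), with adjusted p-values of 0.324, 0.499 and 0.587 from limma.

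The library shNC replicate 3 was at 56.0 RPKM for Loxl1 and 26.1 RPKM for Loxl2, among or above the shM5 values, where shNC replicates 1 and 2 were at 32.9 to 35.9 and 13.2 to 13.7 RPKM. Without it, which leaves 2 libraries against 3 and was tried with this library's position known, 67.4% of all genes were called and so were 4 of the 6 members. Loxl2 rose by 0.92 (SE 0.06, adjusted p = 8.49e-06), Loxl1 by 0.63 (SE 0.05, adjusted p = 2.96e-05) and Bgn by 0.26 (SE 0.07, adjusted p = 0.0131, limma). Loxl4 fell by 0.32 (SE 0.07, adjusted p = 0.00331, limma). Loxl3 (0.22, adjusted p = 0.324) and Dcn (-0.13, adjusted p = 0.498, limma) were not called, and for both shM5 replicate 3 was the lowest of the shM5 libraries, at 6.72 and 565 RPKM. As 4 of 6 is close to the share of all genes, the calls are not particular to these families.

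**Figure D5:**
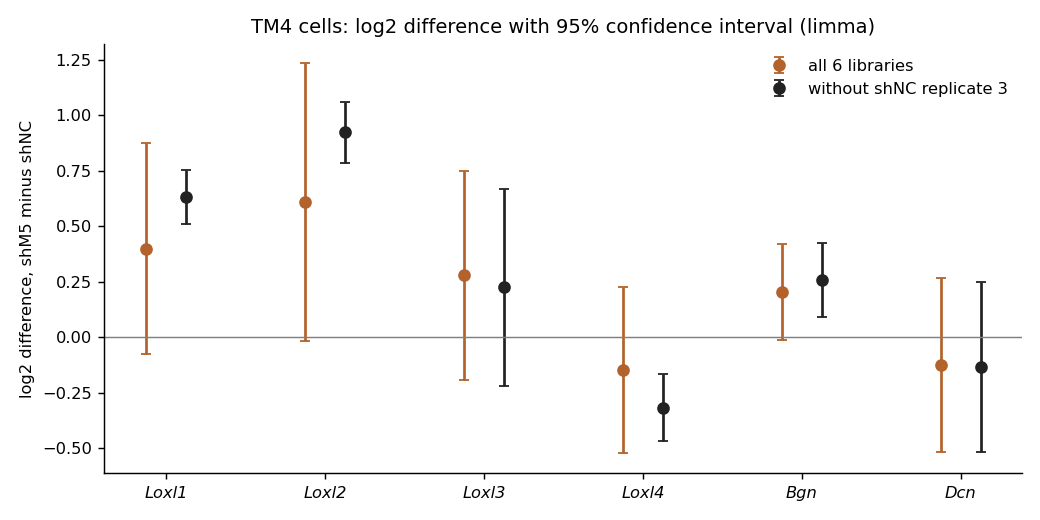
Difference between shM5 and shNC in log2(RPKM + 0.1) (vertical axis) with 95% confidence intervals from limma in TM4 cells for the 6 tested members, with all 6 libraries (brown) and without shNC replicate 3 (black). The intervals of Loxl1, Loxl2, Loxl4 and Bgn include 0 with all libraries and do not include 0 without that library.

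Lox and Fmod, which were lower with shM5 in C18-4 cells, were at or below 0.09 RPKM in all TM4 libraries, so no decrease could be seen there. Loxl2 was at 0.41 in C18-4 and 0.61 in TM4 cells, and Bgn at -0.53 and 0.20, and the difference between the lines in these effects was not tested. The myoid and fibroblast markers summed to 276 to 394 RPKM with shNC and 371 to 491 RPKM with shM5 in TM4 cells. The highest shNC sum was that of replicate 3. Acta2 went with the sum, at 66.4, 63.3 and 140 RPKM with shNC and 144, 142 and 194 RPKM with shM5. Cnn1 was also higher with shM5, without overlap. Cd34 went the other way, at 137, 139 and 113 and at 111, 105 and 111 RPKM. Tagln overlapped between the groups, at 59.3, 57.2 and 107 RPKM with shNC and 90.4, 86.2 and 153 RPKM with shM5, and so did Pdgfra, Pdgfrb and Des. The part of these markers in the values of the members was not tested.

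Of the related lists in TM4 cells, 0 genes were called with all libraries (19, 22, 9, 6 and 22 tested for substrates, collagen modification, copper, other small leucine-rich proteoglycans and glycosaminoglycan synthesis, limma), and their medians were 0.34, 0.25, 0.08, 0.46 and 0.29. Without shNC replicate 3, 4026 of all 11026 genes tested were called higher and 3407 lower with shM5 (36.5% and 30.9%), and 45 of the 78 list genes were higher and 9 lower. Among these, 10 of 19 substrate genes rose and 3 fell, with Emilin1 (1.68), Col3a1 (1.23) and Col1a1 (0.93) higher, and Fn1, Fbln5 and Fbln2 fell by 0.46, 0.31 and 0.21. Of 22 genes of collagen modification 15 rose and 1 fell, with the prolyl hydroxylases P4ha3 (0.71), P4ha2 (0.70) and P3h1 (0.70) higher and P3h2 (-0.70) lower. Of 9 copper genes 4 rose and 1 fell, with Steap3 (0.94), the chaperone Atox1 (0.56) and Commd1 (0.32) higher and Steap2 (-0.78) lower. Of 6 other small leucine-rich proteoglycans 2 rose, Omd (0.77) and Tsku (0.74), and 0 fell. Of 22 genes of glycosaminoglycan synthesis 14 rose and 4 fell, with Chst12 (1.69), Chpf2 (1.43) and Dsel (1.30) higher and B3galt6 (-0.91), B3gnt2 (-0.82) and Csgalnact2 (-0.54) lower.

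The genes with the most similar pattern were taken by the correlation of log2(RPKM + 0.1) over the 12 libraries after the mean of each line was subtracted, which describes deviations within lines that share libraries and groups. Lox was closest to Grasp (r = 0.931), Phpt1 (0.913) and Perp (0.911). Lox was at or below 0.07 RPKM in TM4 libraries, so its deviations there are those of values near 0. With Perp, no correlation was obtained within TM4 cells. Loxl1 was closest to Hdac6 (0.990), Triobp (0.988) and Adgra3 (0.987), and Loxl2 to Mfap3l (0.994), Arhgef5 (0.992) and Cdc42bpb (0.989). For Loxl3 they were Igfbp7 (0.953), Plod3 (0.941), which encodes a collagen lysyl hydroxylase, and Gm1673 (0.909), and for Loxl4 they were Mus81 (0.977), Lgalsl (0.975) and Txndc16 (0.970). Bgn was closest to Plxnd1 (0.986), Ptpn13 (0.975) and Myo7a (0.972), and Dcn to Phyh (0.963), Masp1 (0.949) and Man2a1 (0.937). Between members, Loxl1 and Loxl2 were the most alike (0.894) and Lox and Dcn the most opposed (-0.706), while Bgn and Dcn were at 0.0945. The value of Lox and Dcn has the same limit, as Lox was near 0 in TM4 cells. TM4 shNC replicates 1 and 2 were the lowest libraries of both Loxl1 and Loxl2 in that line.

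In the GENCODE M21 annotation some members share exon bases with another gene on the opposite strand, and strand was not stated for the counting, so these reads cannot be told apart. Loxl3 shared 535 bases with Htra2, a protein-coding gene, Prelp 350 bases with Gm15851, Loxl2 301 bases with Gm27177 and Lox 30 bases with AC161119.1. Loxl2 also shared 7 bases with Mir6950 on its own strand. Loxl1, Loxl4, Fmod, Bgn, Dcn and Lum shared none.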

How the data were processed

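The authors enriched mRNA with oligo(dT), sequenced it on an Illumina HiSeq, aligned reads with SOAPaligner and deposited RPKM values, normalised for gene length and library size, with 2 decimals. The genome build and annotation are not given in the sources used here. Groups and replicate numbers were taken from the sample labels. log2(RPKM + 0.1) was fitted with limma 3.58.1 (R 4.3.3, eBayes with a trend) over all genes averaging 0.5 RPKM or more, with Benjamini-Hochberg adjustment over all genes tested, and a gene was called at an adjusted p below 0.05. The authors had used DEGseq on reads. limma was tested on simulated data. Tables and figures were made in Python 3.11.15. C18-4 libraries of the same number deviated together from their group means (correlations 0.439, 0.409 and 0.631), in TM4 not every pair did (0.0729, 0.0489 and 0.127). In C18-4 cells replicates 1 and 2 also deviated together across numbers (0.341 and 0.345), and replicate 3 went against them (-0.514 to -0.467). The block therefore also takes up the difference of replicate 3 from the others, and these values do not show that libraries were paired by number. The members and lists were chosen with earlier results of these data known. All members are named, and of each list up to 3 called genes per direction with the largest difference, and the 3 genes most correlated with each member of at least 5 RPKM.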

Additional observations from a re-analysis of the deposited data

How the results depend on the processing

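RPKM keeps no read numbers, so the counting error of low values (Fmod, Lum, Prelp, and Lox in TM4 cells) is unknown. In C18-4 cells, 68 genes were called, 4 without the filter on low values, 1386 with the replicate block and 3029 without replicate 3 of both groups. Leaving out 1 library gave 0 to 237, with 237 without shNC replicate 3, 31 without shM5 replicate 3 and 0 without any other. The cause was not tested. In TM4 cells, 0 genes and 0 members were called, also with the replicate block. Without replicate 3 of both groups 8016 of 11030 genes were called, 39.9% higher and 32.8% lower with shM5, and 5 of the 6 tested members. With most genes called, this is no feature of the members. Leaving out 1 library gave 0 to 7433 genes and 0 to 4 members, above 0 only without shNC replicate 3. Between the lines, 8596 genes were called, within 1.5 times of this number in every alternative. Loxl1, Loxl3 and Loxl4 lost their calls with the shNC libraries alone. No difference of a member changed sign among the called values in TM4 cells or between the lines, and the block changed no call of a member there. Dcn, which was not called in TM4 cells, did change sign. It was at -0.12 with all libraries, 0.07 without shM5 replicate 3 and 0.06 without replicate 3 of both groups.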
